A study of Mus musculus with 6 samples.

Results

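Scn7a encodes a sodium channel that is known from peripheral glia and responds to the sodium level. It was examined together with 7 genes known from Schwann cells (Sox10, Erbb3, Ngfr, L1cam, S100b, Mbp and Pmp22) in the lungs of mice with ectopic human SRY. All probes whose symbol equals one of these 8 names were taken. This gave 9 probes for 6 of the genes, out of 25697 probes for 18138 symbols. No probe was matched to Sox10 or Erbb3, and both are not analysed here. Scn7a was included because its signal fell strongly in this comparison, so it was selected on the values shown here, which are given as a description without a test. The other members were listed as known genes of the cell type.

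The samples were lungs of male mice at postnatal day 6, on the FVB background, with 3 hSRY-OFF and 3 hSRY-ON mice and 1 Illumina BeadChip for each mouse. In hSRY-ON mice, Cre recombinase from the egg of a Ddx4-Cre mother had removed a DsRed2 cassette from the Signalox-hSRY transgene, which placed FLAG-tagged human SRY and EGFP behind the ubiquitous CAG promoter from the single-cell embryo onward. The hSRY-ON mice used for arrays did not carry the Ddx4-Cre transgene. The name hSRY-OFF stands in the study for mice with the transgene not recombined, and because littermates without it also served as controls there, the genotype of these arrays rests on their label. The line carries a single copy of the transgene at a chosen locus, SRY is active in the whole body and not in glia alone, and whole lung was used. The arrays were 3 against 3, a size at which an exact permutation test of a single value cannot give a p below 0.1. No probe was matched to human SRY, and the probe of mouse Sry was at background throughout.

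Schwann cells are the glia of peripheral nerves, and in the lung they follow the nerve bundles along airways and vessels. They arise from the neural crest under the transcription factor Sox10, depend on neuregulin from axons through the receptors Erbb2 and Erbb3, and either ensheathe groups of small axons or wrap a larger axon in myelin, whose proteins include Mbp, Pmp22 and Mag. Ngfr and L1cam mark immature or non-myelinating Schwann cells, and S100b is used as a general glial marker. Several of these genes are also used outside nerve. Pmp22 is a growth arrest gene of fibroblasts and epithelium, Erbb3 is found in epithelium, S100b in cartilage and fat cells, and the locus of Mbp also gives transcripts in immune cells.

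The letters before the start sites of the genes were read because SRY and the SOX factors bind DNA with the same kind of domain. The promoter of Scn7a is shown as that of the member included for its fall, and the promoter of Mag as that of a myelin gene that rose. Each is the 250 bases before the RefSeq start site on build GRCm38.p6 (for Mag the most upstream of 3), 5′ to 3′ on the gene's strand. Capitals mark a match to the core of a SOX site, ACAAAG, which on the opposite strand is read as CTTTGT. The core bound by SRY, AACAAT, was searched in the same way, with its opposite strand spelled ATTGTT. These motifs cannot overlap each other on the same strand.
Scn7a, chr2:66784911-66785160, minus strand: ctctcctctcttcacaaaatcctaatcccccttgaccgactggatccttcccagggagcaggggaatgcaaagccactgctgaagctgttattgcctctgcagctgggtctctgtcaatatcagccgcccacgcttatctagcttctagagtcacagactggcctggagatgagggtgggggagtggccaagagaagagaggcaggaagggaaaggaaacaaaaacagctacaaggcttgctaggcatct
Mag, chr7:30914923-30915172, minus strand: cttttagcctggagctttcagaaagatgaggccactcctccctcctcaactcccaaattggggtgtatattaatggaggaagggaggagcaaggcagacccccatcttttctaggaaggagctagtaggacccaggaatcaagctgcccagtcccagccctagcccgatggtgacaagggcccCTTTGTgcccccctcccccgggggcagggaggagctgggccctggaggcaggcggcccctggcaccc
Neither motif was in the Scn7a window. In all, 9 windows were read for 5 of the members (Scn7a, Ngfr, L1cam, S100b and Pmp22). Of these, 0 held AACAAT and 0 held ACAAAG in either orientation. The member search left out the chromosome of Mbp, so Mbp was not read. No window of Sox10 or Erbb3 was read either. Of 32851 windows of all genes, a share taken with no chromosome left out, 9.42% held AACAAT and 16.5% held ACAAAG. For Mag, 2 of 3 windows held CTTTGT, and as these windows overlap it is the same site in both. In the one printed it begins 67 bases before the start site. Such matches describe letters only.

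Values are normalized log2 intensities, and a probe counts as detected on an array when its detection p, the share of negative control probes brighter than it, was under 0.05. Each array detected 13191 to 14134 probes. Over the 13841 probes tested (detected on at least 3 arrays), the correlation between arrays was 0.991 to 0.993 within hSRY-OFF, 0.972 to 0.980 within hSRY-ON and 0.935 to 0.959 between the groups, across probes that are not independent. All tested probes together had a median change of -0.03. In whole lung, fewer cells of a type and less RNA in each cell cannot be told apart.

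The markers that define Schwann cells were weak in these lungs, so the cell type could be checked only in part. Sox10 is not analysed here. S100b and L1cam were not detected on any array, and neither was Cdh19, a cadherin of Schwann cell precursors. Of 25 further Schwann cell and myelin genes that had a probe, 8 were not detected on any array: Cdh19, Cldn19, Fabp7, Foxd3, Gfap, Gfra3, Kcna1 and Pou3f1. The members are therefore described gene by gene. Which lung cells gave the signal of Scn7a was not tested.

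Scn7a had a clear signal in every hSRY-OFF lung and little above background in hSRY-ON. Its probe ILMN_2656777 gave unprocessed intensities of 690.3, 823 and 748 on hSRY-OFF arrays 1 to 3. On hSRY-ON arrays 1 to 3 it gave 222, 178 and 199.97. After normalization the log2 values were 9.10, 9.53 and 8.99 in hSRY-OFF lungs and 6.51, 5.59 and 5.85 in hSRY-ON lungs. All hSRY-ON values lay below all hSRY-OFF values, and the probe was still detected on all arrays, with a detection p of 0.0263 on hSRY-ON array 2 and 0.0113 on array 3. The means were 9.21 ± 0.28 (SD, n = 3) and 5.99 ± 0.47 (SD, n = 3), a change of -3.22 on the log2 scale or 9.34-fold. In unprocessed intensities, which still contain the background, the ratio of the means was 3.77, and without background correction the log2 change was -1.84. The plot of the member probes by array shows Scn7a and the other members side by side.

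**Figure D1:**
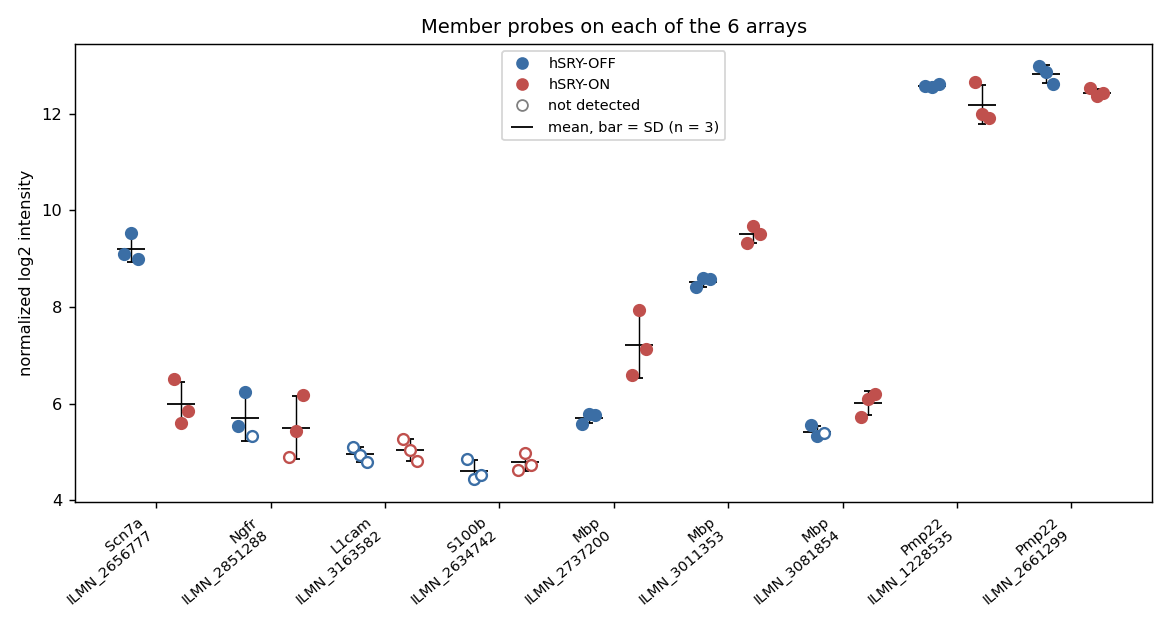
Normalized log2 intensity (y axis) of the 9 member probes (x axis) on each of the 6 arrays, hSRY-OFF in blue and hSRY-ON in red, with filled points where the probe was detected, open points where it was not, and the mean with SD (n = 3). Scn7a is lower in all hSRY-ON lungs (5.99 against 9.21 on average), the 3 Mbp probes are higher, and no point of L1cam or S100b is filled.

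Among the other sodium channel subunits, Scn3b fell with Scn7a. Scn3b encodes a beta subunit, a membrane protein with an immunoglobulin fold that joins the pore of voltage-gated sodium channels. The brightest of its probes, ILMN_1215136, gave 10.80, 10.86 and 10.62 in hSRY-OFF and 8.64, 7.86 and 8.74 in hSRY-ON lungs. The groups did not overlap, and the change was -2.35 ± 0.24 (SE, limma, adjusted p = 0.00157). The probes ILMN_1227604 and ILMN_3163577 changed by -2.47 and -2.18 (limma, adjusted p = 0.00193 and 0.00189). Another Scn3b probe, detected on 1 array, was not tested. Of 10 other subunits with a probe, 3 passed the filter, among them the pore subunit Scn8a, which was detected on 1 array of hSRY-OFF and 2 of hSRY-ON. Scn8a changed by 0.51 (limma, adjusted p = 0.163), and its groups overlapped. The probes of Scn1a, Scn4a and Scn11a were not detected on any array.

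The probes closest to Scn7a were found by Euclidean distance over the 6 arrays, after the mean of each probe was subtracted, among 13834 tested probes of other genes. The closest was P2ry14, a receptor for UDP-glucose, at a distance of 0.84 on the log2 scale. It was followed by Slc22a9 at 1.10, Scn3b at 1.13 (ILMN_1227604), Rcan1 at 1.13 and LOC100046044 at 1.13. Rcan1 encodes a regulator of calcineurin and Slc22a9 is named as a solute carrier. The remaining tested Scn3b probes ranked 8 and 22. The distance is small for any probe whose groups differ by a similar amount. P2ry14 had values of 8.55, 8.62 and 8.01 in hSRY-OFF and 6.21, 4.93 and 5.87 in hSRY-ON lungs, and it was not detected on 1 of the latter. Scn7a, P2ry14, Scn3b, Rcan1 and LOC100046044 each had their lowest value in hSRY-ON replicate 2. Slc22a9 was not detected on any hSRY-ON array and was at least 4.295-fold lower, set against the lowest detected signal of those arrays. These genes were selected on their likeness to Scn7a, so their differences are given with no test here, and that of Scn3b was tested as a listed channel subunit.

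**Figure D2:**
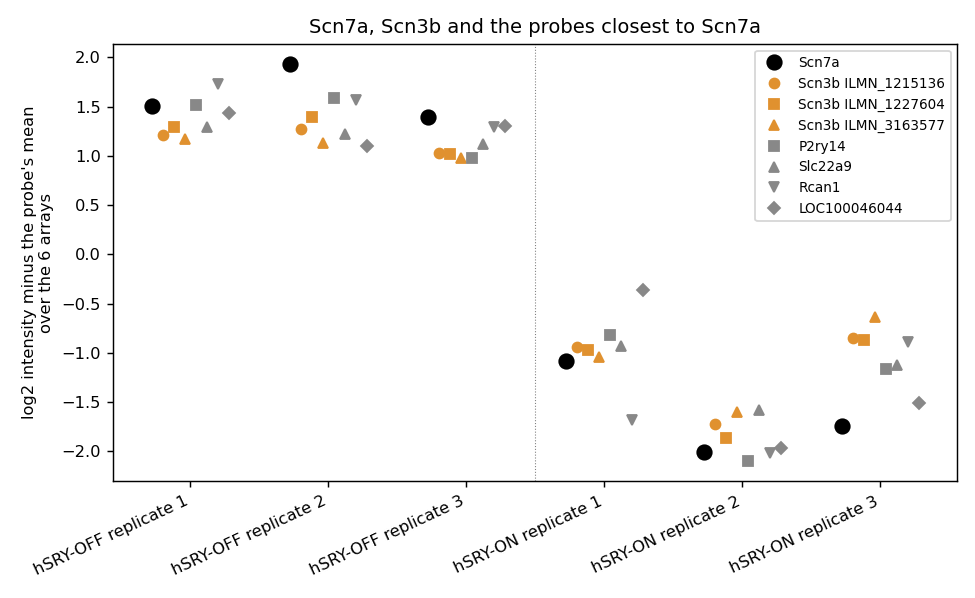
Log2 intensity minus the mean of each probe over the 6 arrays (y axis) for each array (x axis), with Scn7a in black, the 3 tested Scn3b probes in orange and the other probes closest to Scn7a in grey, shifted sideways within an array. All of these probes are high on hSRY-OFF and low on hSRY-ON arrays, since closeness to Scn7a was the reason they were chosen.

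Ngfr, the low-affinity neurotrophin receptor of immature Schwann cells and of some mesenchymal cells, did not separate the groups. Its probe gave 5.54, 6.24 and 5.33 in hSRY-OFF and 4.90, 5.43 and 6.19 in hSRY-ON lungs, and it was detected on 2 arrays of each group. The spread within each group was larger than the difference of -0.20 ± 0.36 (SE, limma, adjusted p = 0.710), and it became 0.07 when hSRY-OFF replicate 2 was left out and 0.11 when hSRY-ON replicate 1 was.

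L1cam, an adhesion molecule of axons and unmyelinated Schwann cells, lay between 4.79 and 5.28 on all arrays and was not detected on any. Its detection p ranged from 0.0815 to 0.274. S100b, a calcium-binding protein used as a glial marker, lay between 4.44 and 4.99, with a detection p from 0.145 to 0.977. A difference in these 2 genes was not detectable at this signal, which is not evidence that they were absent.

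Mbp, the protein that compacts myelin on its cytoplasmic side, was higher in hSRY-ON lungs with all 3 probes. The brightest, ILMN_3011353, gave 8.41, 8.59 and 8.57 in hSRY-OFF and 9.31, 9.68 and 9.51 in hSRY-ON lungs. The groups did not overlap, and the change was 0.98 ± 0.14 (SE), or 1.97-fold (limma, adjusted p = 0.00408). The probe ILMN_2737200 gave 5.58, 5.78 and 5.78 against 6.59, 7.95 and 7.13. It rose by 1.51 ± 0.32 (SE, limma, adjusted p = 0.0148). Its hSRY-ON arrays were further apart from each other, and the highest value was that of replicate 2. The dimmest probe, ILMN_3081854, gave 5.55, 5.32 and 5.40 against 5.72, 6.10 and 6.19, a change of 0.58 ± 0.16 (SE, limma, adjusted p = 0.0341). It was not detected on 1 hSRY-OFF array.

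The calls of Mbp differed in how far they held. That of ILMN_3011353 held in all 15 alternatives, with a change between 0.77 and 1.07. That of ILMN_2737200 was lost without hSRY-OFF replicate 1 (adjusted p = 0.0616) or replicate 2 (adjusted p = 0.0541) in limma, and its change without background correction was 0.62. That of ILMN_3081854 was lost in 9 of 14 alternatives, among them no background correction, where its change was 0.17 (limma, adjusted p = 0.140).

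Pmp22, a membrane protein of compact myelin that is also made by fibroblasts and epithelium, had strong signal on all arrays. The probe ILMN_2661299 gave 12.98, 12.87 and 12.61 in hSRY-OFF and 12.52, 12.35 and 12.42 in hSRY-ON lungs. All hSRY-ON values were below the hSRY-OFF values, and the change was -0.39 ± 0.14 (SE, limma, adjusted p = 0.0747). It passed the threshold without background correction (change of -0.38, limma, adjusted p = 0.0318) and with a variance trend and robust estimation (adjusted p = 0.0223). The probe ILMN_1228535 gave 12.56, 12.55 and 12.61 against 12.65, 12.0001 and 11.91. Here hSRY-ON replicate 1 stood with the hSRY-OFF arrays while the other two were lower. The change was -0.39 ± 0.20 (SE, limma, adjusted p = 0.193), and without hSRY-ON replicate 1 it was -0.61 (limma, adjusted p = 0.0113).

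Apart from Scn7a, 3 of the 6 tested member probes were called, and all 3 were the Mbp probes that rose. Over all tested probes 26.9% were called in either direction at an adjusted p under 0.05, 13.6% as higher and 13.3% as lower. The 6 probes stand for 3 genes, so their share says little beside this background. The values of the groups did not overlap for 4 of the 6, against 46.6% of all tested probes. The number of called member probes was 1 without hSRY-OFF replicate 1 and 1 without hSRY-OFF replicate 2.

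The other Schwann cell and myelin genes did not move in a common direction. Of 28 listed genes, 25 had a probe and 12 passed the filter, with 17 probes. Of these 17 probes, 4 were called higher, 3 lower and 10 were not called, which is 41.2% called beside 26.9% of all probes. Their median change was -0.08. Among the genes called higher were Mag and Tspan11. Mag, an adhesion protein between glia and axon whose promoter is printed above, gave 6.46, 6.41 and 6.70 in hSRY-OFF and 7.63, 8.03 and 7.75 in hSRY-ON lungs. The groups did not overlap, and it rose by 1.28 ± 0.15 (SE, limma, adjusted p = 0.00241).

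Tspan11, a tetraspanin, rose most in this list. Its probe ILMN_1233890 gave 6.10, 5.94 and 5.86 in hSRY-OFF and 8.75, 9.32 and 8.79 in hSRY-ON lungs. The change was 2.99 ± 0.18 (SE, limma, adjusted p = 0.000478), and 1.66 without background correction. The second probe rose by 1.39 (limma, adjusted p = 0.00520). The calls of Mag and both Tspan11 probes held in every alternative in which they were tested, although without background correction the change of Mag was 0.65.

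The genes called lower were Prx and Egr2. Prx encodes periaxin, a scaffold protein of myelinating Schwann cells that is also known from lung endothelium. Its probe ILMN_3154269 gave 9.69, 9.98 and 9.60 in hSRY-OFF and 8.94, 8.59 and 8.25 in hSRY-ON lungs, a change of -1.16 ± 0.20 (SE, limma, adjusted p = 0.00791). The probe ILMN_2593225 changed by -1.07 (limma, adjusted p = 0.00717). The groups did not overlap with either probe. Egr2, the transcription factor that starts myelination and is also an early response gene of many cells, changed by -0.41 ± 0.12 (SE, limma, adjusted p = 0.0408). Its call was lost in 10 of 15 alternatives, among them leaving out any array other than hSRY-ON replicate 1 (limma, adjusted p up to 0.154), and no background correction (limma, adjusted p = 0.171).

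Among the myelin proteins of both groups of genes, Mbp and Mag were called higher, while Pmp22 and Cnp, an enzyme of myelin membranes, were not called. The Cnp probes changed by 0.32 and 0.05 (limma, adjusted p = 0.246 and 0.801). Mal, a lipid raft protein of myelin and epithelium, changed by -0.34 with its probe ILMN_1224029 (limma, adjusted p = 0.162). Its probe ILMN_1248947 was not detected on any hSRY-ON array and was not called (limma, adjusted p = 0.0709). Dhh, the hedgehog ligand of Schwann cells, changed by -0.64 (limma, adjusted p = 0.0967).

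**Figure D3:**
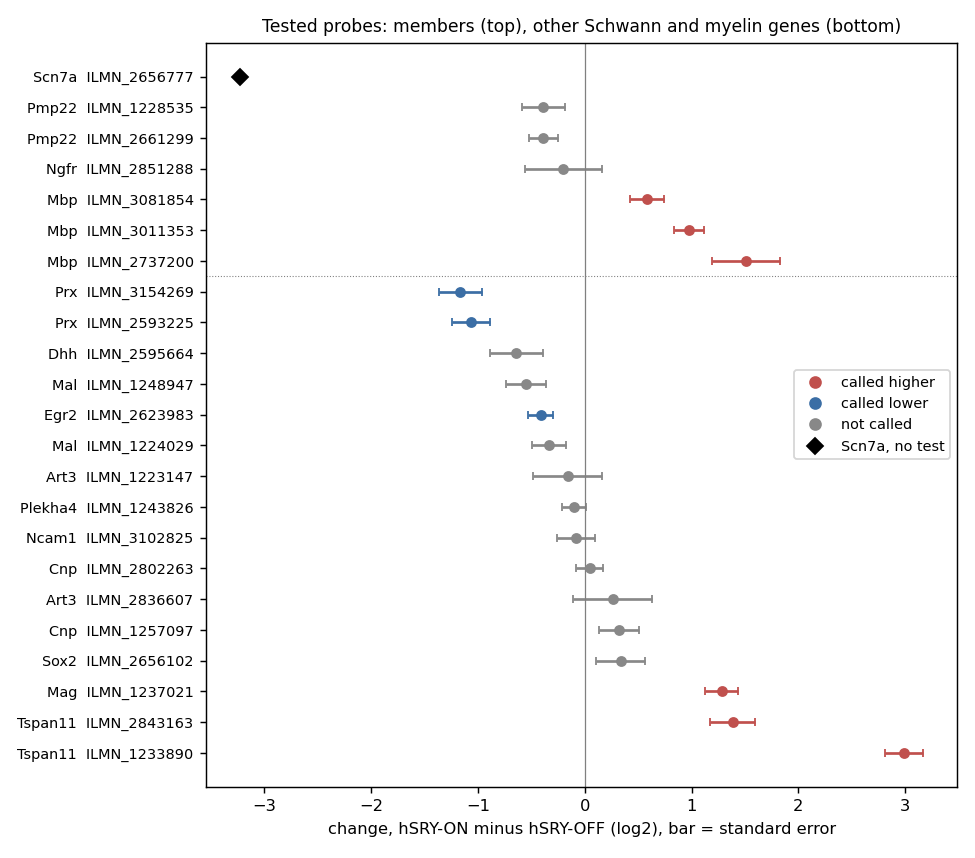
Change between hSRY-ON and hSRY-OFF lungs on the log2 scale (x axis) with its standard error for tested probes (y axis), members above the dotted line and other Schwann cell and myelin genes below it, red for called higher, blue for called lower and grey for not called. Scn7a (black) carries no test, and Mal ILMN_1248947, not detected in hSRY-ON, is drawn at its fitted change. Mbp, Mag and Tspan11 lie to the right of 0, and Prx and Egr2 to the left.

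**Figure D4:**
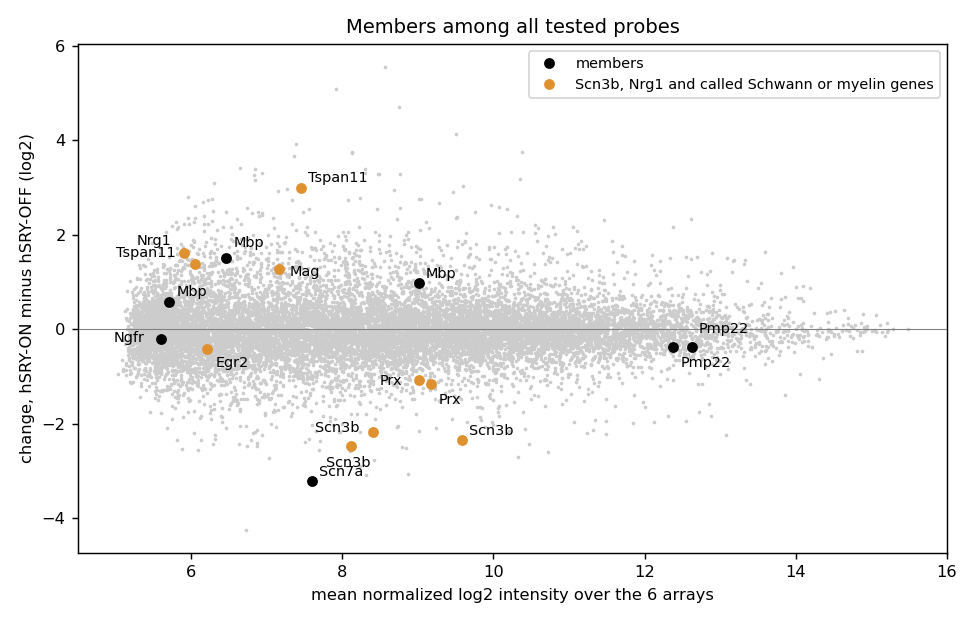
Change between hSRY-ON and hSRY-OFF on the log2 scale (y axis) against the mean log2 intensity over the 6 arrays (x axis) for all 13841 tested probes in grey, the members in black, and Scn3b, Nrg1 and called Schwann cell or myelin genes in orange. Scn7a lies at -3.22 and both Pmp22 probes at -0.39, while Ngfr and the Mbp probe with the smallest change are at the dim end.

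The ligands and receptors that act on Schwann cells were examined next. Of 21 listed genes of the neuregulin, neurotrophin and GDNF families, 17 had a probe and 9 passed the filter, with 15 probes. Of these, 3 were called higher and 0 lower (limma), or 20.0% beside 26.9% of all probes. Nrg1, the neuregulin that binds Erbb3, rose by 1.62 ± 0.30 (SE, limma, adjusted p = 0.00940). Its values were 5.17, 5.29 and 4.82 in hSRY-OFF and 6.76, 7.29 and 6.11 in hSRY-ON lungs, it was detected on 1 hSRY-OFF array, and its change without background correction was 0.54. Artn, a ligand of the GDNF family, rose by 0.76 (limma, adjusted p = 0.0216) with a single detected value in hSRY-OFF, and lost its call without background correction or without hSRY-OFF replicate 2, hSRY-OFF replicate 3 or hSRY-ON replicate 2 (limma, adjusted p up to 0.0817). Egfr, a relative of Erbb3, rose by 0.996 with 1 of its 4 tested probes (ILMN_2693922, limma, adjusted p = 0.00864). The remaining Egfr probes changed by 0.51, 0.30 and -0.04 and were not called. The ligands Nrg3, Ntf3 and Ntf5 and the receptor Ret were not detected on any array.

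Markers of neurons were followed because Schwann cells lie along axons. Of 16 listed genes, 15 had a probe, 5 passed the filter, and 10 were not detected on any array, among them Chat, Dbh, Elavl4, Nefl, Nefm, Prph, Snap25, Syt1 and Th. Of 7 tested probes, 1 was called higher and 4 lower, or 71.4% beside 26.9% of all probes. Uchl1, a ubiquitin hydrolase of neurons and neuroendocrine cells, rose from 7.26, 7.54 and 7.70 to 9.20, 9.41 and 9.13. Its change was 1.75 ± 0.15 (SE, limma, adjusted p = 0.00105). Rtn1, a reticulon of neurons and neuroendocrine cells that is also found in some immune cells, fell with all 3 tested probes. The probe ILMN_2758070 changed by -1.53 and ILMN_3115490 by -1.47 (limma, adjusted p = 0.00304 and 0.00253). The probe ILMN_3040710 was not detected on any hSRY-ON array and was at least 3.33-fold lower (limma, adjusted p = 0.00145). Gap43, a growth cone protein that immature Schwann cells also make, was detected on all hSRY-OFF and on no hSRY-ON arrays and was at least 1.28-fold lower (limma, adjusted p = 0.00791). Tubb3, a neuronal tubulin, changed by 0.26 (limma, adjusted p = 0.424) with overlapping groups. Stmn2, another marker of this list, changed by -0.45 and was not called (limma, adjusted p = 0.0989). The summed level of the list was 2185 to 2754 in hSRY-OFF and 1749 to 1928 in hSRY-ON lungs. Most of it in hSRY-OFF came from Rtn1 and Stmn2.

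Markers of other cells that could carry these genes moved as well, and their part in the results above was not tested. The summed level of the 8 tested epithelial genes was 9702 to 10093 in hSRY-OFF and 14465 to 16163 in hSRY-ON lungs. Of 11 probes for them, 6 were called higher and 0 lower (limma), or 54.5% beside 26.9% of all probes in either direction and 13.6% called higher. Krt19 rose by 1.18 and Esrp1 by 0.82 (limma, adjusted p = 0.00162 and 0.00350), Elf3 by 1.10 with its brightest probe and Krt8 by 0.48 (limma, adjusted p = 0.0115 and 0.0181). The calls of Elf3 were lost without hSRY-OFF replicate 2 (limma, adjusted p = 0.0516 for this probe), and that of Krt8 without any 1 of the hSRY-OFF arrays (limma, adjusted p up to 0.0723).

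The 11 tested alveolar fibroblast genes had a summed level of 64434 to 70015 in hSRY-OFF and 68772 to 74040 in hSRY-ON lungs. Of their 13 probes, 2 were called higher and 1 lower, or 23.1% beside 26.9% of all probes. Wnt2, a ligand of the distal lung mesenchyme, fell by 2.18 on the log2 scale (limma, adjusted p = 0.00696), while the methyltransferase Inmt rose by 2.15 and the lipid droplet protein Plin2 by 1.02 (limma, adjusted p = 0.0111 and 0.00563). Col13a1 was not detected on any array.

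The 7 tested cardiac muscle genes had a summed level of 7209 to 9638 in hSRY-OFF and 2749 to 4436 in hSRY-ON lungs, and Myl4 made up most of it in hSRY-OFF. Of their 8 probes, 1 was called higher, 2 lower and 5 were not called, or 37.5% beside 26.9% of all probes, with a median change of -0.01. Myl4, an atrial myosin light chain, fell by 1.94 and Sln, which encodes the atrial protein sarcolipin, by 0.88, and Mybpc3 rose by 0.96 (limma, adjusted p = 0.00501, 0.0425 and 0.0172). The call of Sln was lost in 7 of 15 alternatives, among them leaving out any array other than hSRY-ON replicate 1 (limma, adjusted p up to 0.129), and that of Mybpc3 without hSRY-OFF replicate 1 or hSRY-ON replicate 2 (limma, adjusted p up to 0.0519). Nkx2-5 and Ryr2 were not detected on any array.

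Of 13 cartilage genes, 4 passed the filter and 6 were not detected on any array (Cnmd, Col11a1, Col9a3, Hapln1, Matn1 and Matn3). The summed level of those tested was 317 to 369 in hSRY-OFF and 227 to 274 in hSRY-ON lungs. Of their 5 probes, 2 were called lower, 0 higher and 3 were not called, or 40% called beside 26.9% of all probes. Those called were the probes of Col2a1, the collagen of cartilage, which changed by -1.76 and -1.38 (limma, adjusted p = 0.00369 and 0.00365). Those not called were Col11a2 at 0.51, Col9a1 at 0.44 and Col9a2 at -0.56 (limma, adjusted p = 0.223, 0.143 and 0.0538). Among melanocyte genes, 4 probes were tested, of which 1 was called lower and 3 were not called, or 25% beside 26.9% of all probes. The probe called was that of Mlana, which changed by -1.33 (limma, adjusted p = 0.00285), while Dct, Mitf, Slc45a2, Tyr and Tyrp1 were not detected on any array. The summed level of the 2 tested genes was 3438 to 4362 in hSRY-OFF and 4249 to 5499 in hSRY-ON lungs, most of it from Ednrb, an endothelin receptor of many lung cells. The 2 tested adipocyte genes, Pparg and Lipe, were not called (limma, adjusted p = 0.0901 and 0.158), with a summed level of 380 to 468 in hSRY-OFF and 494 to 898 in hSRY-ON lungs, and Cidec, Fabp4, Lep, Pck1, Plin1 and Retn were not detected on any array.

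**Figure D5:**
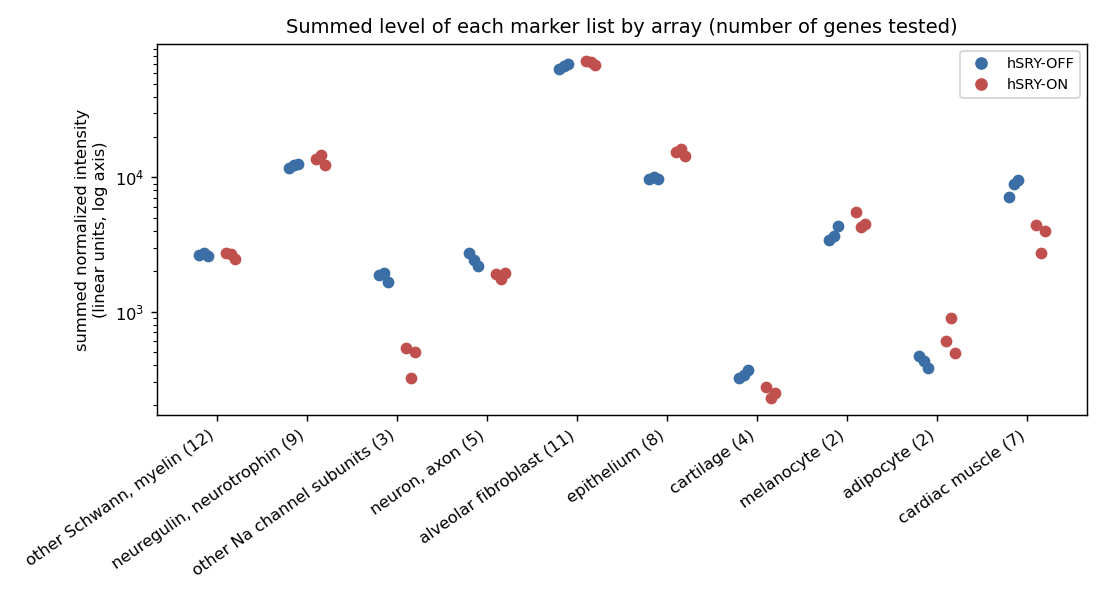
Summed normalized intensity in linear units (y axis, log scale) of the tested genes of each list (x axis, number of genes in brackets) on each array, hSRY-OFF in blue and hSRY-ON in red. The sums of the other sodium channel subunits (1648 to 1935 against 317 to 539) and of cardiac muscle genes, mostly Myl4 in hSRY-OFF, are lower in hSRY-ON. Those of epithelial genes are higher in hSRY-ON. The sums of the other Schwann cell and myelin genes (2574 to 2751 against 2449 to 2739) overlap. This overlap holds opposite changes, such as -1.16 for Prx (ILMN_3154269) and 2.99 for Tspan11 (ILMN_1233890) on the log2 scale.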

How the data were processed

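RNA from 6 lungs was labelled with biotin and hybridised to MouseRef-8 BeadChips, 1 array for each mouse. The authors deposited a table with an intensity (mean bead signal on a linear scale, neither background-corrected nor normalized) and a detection p-value for each probe and array. The software that summarised the beads is not given in the sources used here. Median intensities were 177.1 to 204 per array. The study's methods name TCC, a package for counts, and the submitters' processing notes name limma. For intensities, limma 3.58.1 in R 4.3.3 was used here.

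The neqc steps (background from detection p-values, offset 16, quantile normalization, log2) were applied. Probes detected (p under 0.05) on at least 3 arrays were fitted with lmFit and eBayes, 13841 of 25697. P-values are two-sided and adjusted by Benjamini-Hochberg over all of them. A probe not detected on any array of a group was given a bound against the lowest detected signal. The summed level of a list adds the linear values of the brightest tested probe of each gene. Of 144 list genes, 128 had a probe, some through RefSeq synonyms (GRCm38.p6). The RefSeq table also gave the promoters. The members and lists were chosen with earlier results of these data known. Genes were named by rule: all members, in each list up to 4 called genes in each direction by p, all called Schwann cell and myelin genes, some defining markers, and the 5 genes closest to Scn7a. Cnp, Mal, Dhh, Ednrb, Pparg, Lipe, Stmn2, Col11a2, Col9a1, Col9a2, genes listed as not detected and those under other observations were named after their values were seen. Some genes counted in the lists are not reported here by name. The fit was tested on simulated data with 200 changed probes, where 18961 probes passed the filter. It called 47% of the probes changed by 1 on the log2 scale and 78% of those changed by 2. Of its calls, 4.58% were on unchanged probes. A probe that was not called may therefore still have changed. Replicates are numbered in the labels and are biological by the methods of the study. Alternatives changed the background correction, normalization, filter, variance model, array weights, the replicate block and the arrays used.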

Additional observations from a re-analysis of the deposited data

How the results depend on the processing

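Across 15 alternatives, 50 single probe changes gave 714 values, of which 665 kept direction and side of the threshold, 40 lost the call, 3 gained it, 4 took the other sign and 2, both of Scn7a, moved by more than the spread between replicates. Scn7a changed by -1.84 without background correction and by -2.67 with an offset of 50, settings that compress dim signals by construction, and by -3.51 at most. The other signs were those of uncalled probes: an Egfr probe (0.017 with array weights, -0.18 to 0.20 over all alternatives) and Ngfr (-0.54 to 0.11). The number of called probes, 3728, ranged from 1504 without hSRY-OFF replicate 1 to 4384 without hSRY-ON replicate 1, that of member probes, 3, from 1 to 4, and that of the other Schwann cell and myelin probes, 7, from 5 to 9. Leaving out hSRY-OFF replicate 2 gave 1621 calls, replicate 3 of that group 2103, and hSRY-ON replicate 2 gave 2393. The settings that kept all arrays held these 3 counts within 1.5 times. The labels do not say whether same-numbered mice were paired. The deviations of same-numbered arrays from their group means correlated at -0.107, 0.0957 and -0.0927. Those of arrays with unlike numbers correlated at -0.0885 to 0.162. With 3 arrays in each group these values cannot decide whether the mice were paired. With the replicate number as a block, 2655 probes, 2 member probes and 6 other Schwann cell and myelin probes were called. Signals near background limit what can be said of the dim members.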

Other observations

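Some probes of nerve and channel genes were seen on too few arrays to be tested. The second probe of the adhesion molecule Ncam1 (ILMN_2722864) and the probe of the sodium channel beta subunit Scn2b (ILMN_2935462) were each detected on 2 hSRY-ON arrays alone. Scn10a, a pore subunit of sensory neurons, was detected on 2 arrays, both of hSRY-OFF.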
